A study of Mus musculus with 12 samples.

Results

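The receptors through which a cell reads Wnt proteins were measured in a mouse kidney collecting duct line: 7 Frizzled genes (Fzd1, Fzd2, Fzd4, Fzd5, Fzd6, Fzd7 and Fzd8) and the co-receptor genes Lrp5 and Lrp6. The 9 genes were taken by symbol from a table of 25208 genes, and all 9 were among the 16508 genes with enough reads to test. They were chosen by a measured value, the higher Fzd4 level with dDAVP in these same libraries. Every dDAVP difference of the 9 genes is therefore given as a description. No p-value is printed for it, and nothing is read from counts of calls. Tests are given for the siRNA comparisons and for the interaction of siRNA and dDAVP.

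Frizzled proteins are receptors with a membrane-spanning bundle of helices and a cysteine-rich outer domain that holds the lipid of a Wnt protein. In the canonical branch, a Wnt protein brings a Frizzled together with Lrp5 or Lrp6, Dishevelled is recruited to the Frizzled, the destruction complex is inhibited, and beta-catenin, the product of Ctnnb1, accumulates and acts on transcription. Fzd6 is best known from planar cell polarity, Fzd4 also serves as the receptor of Norrin with Tspan12 as a helper, and Rnf43 and Znrf3 are membrane ubiquitin ligases that remove Frizzleds from the cell surface. Wnt signalling shapes the collecting duct during kidney development.

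The cells were mpkCCDc11, a clonal mouse cortical collecting duct line labelled wild type, grown for 4 days on permeable supports and then kept for 24 h in medium free of serum and hormones. All of them had been transfected with 50 nM of an siRNA, so the reference groups carry a control siRNA rather than none. The 4 groups of 3 libraries were control siRNA with vehicle, control siRNA with 1 nM dDAVP, Ctnnb1 siRNA with vehicle, and Ctnnb1 siRNA with 1 nM dDAVP. dDAVP, a vasopressin analogue that acts on V2 receptors, was given to the basolateral side for 24 h. Separate cultures are not named for the replicates, so p-values measure only the spread between these libraries, and part of it may be technical. In such bulk samples, fewer cells of a type and less RNA per cell cannot be told apart.

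Libraries held 32997720 to 48935473 counted reads. Values per library are given either as CPM, scaled by TMM, for comparing 1 gene between groups, or as TPM, which is corrected for transcript length, for comparing genes with each other. The siRNA target Ctnnb1 was at 745 to 766 CPM with control siRNA and vehicle and at 306 to 334 CPM with Ctnnb1 siRNA and vehicle. With dDAVP it was at 776 to 811 and 326 to 342 CPM. Its transcript was thus lower in all 6 Ctnnb1-siRNA libraries (2.39-fold with vehicle and 2.37-fold with dDAVP), and not absent. All 12 collecting duct and epithelial markers reached a mean of 1 TPM or more, summing to 5014 to 5685 TPM, and the V2 receptor gene Avpr2 ranged from 29.8 to 44.9 TPM. The principal-cell water channel Aqp2 was low, at 0 to 11.3 TPM over the vehicle and dDAVP libraries together, and 8 of 11 principal-cell markers reached a mean of 1 TPM.

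Endothelium, where Fzd4 is best known, left little trace: 5 of its 7 listed markers were in the table and summed to 0.23 to 0.51 TPM per library. The sums did not separate the groups, at 0.35 to 0.38 and 0.23 to 0.40 TPM with control siRNA and vehicle or dDAVP, and at 0.28 to 0.51 and 0.27 to 0.42 TPM with Ctnnb1 siRNA. Fibroblast markers summed to 0.54 to 0.97 TPM over 3 genes in the table. Other lists were not as empty. Intercalated-cell markers, 3 of 6 in the table, summed to 54.2 to 65.4 TPM, nearly all Atp6v1b1 (mean 59.7 TPM). Leukocyte markers, 3 of 6 in the table, summed to 3.88 to 8.13 TPM, nearly all Cd68 (mean 5.27 TPM). The library of Ctnnb1 siRNA with dDAVP numbered 3 had the highest share of mitochondrial ribosomal RNA, 1.52% of reads against 0.464% to 1.27% in the other 11 libraries. That library is named below where a value turns on it.

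On GRCm38 the genes lie on 8 chromosomes. Fzd4 (gene ID 14366) occupies chr7:89404366-89410110 on the plus strand in 2 exons, and Fzd6 (14368) chr15:39006149-39038192 on the plus strand in 7 exons. Fzd2 (57265, chr11:102604431-102608058, plus), Fzd7 (14369, chr1:59482147-59486955, plus), Fzd8 (14370, chr18:9212856-9216201, plus) and Fzd1 (14362, chr5:4753839-4758216, minus) each have 1 exon. Fzd5 (14367, chr1:64730558-64737750, minus) has 2 exons. Lrp5 (16973, chr19:3584825-3686585) and Lrp6 (16974, chr6:134446476-134566913) are on the minus strand with 23 exons each. An antisense transcript overlaps Fzd6 and an unconfirmed transcript overlaps Fzd5 on the other strand. Whether counting used the strand is not given in the sources used here, so their reads may not be told apart from those of the receptor.

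The Frizzled genes are related in sequence, which matters for how reads are assigned. Among the coding sequences, Fzd1 and Fzd2 were identical at 82.0% of aligned bases and Fzd5 and Fzd8 at 76.3%, while Fzd4 reached at most 67.2%, with Fzd1. The longest run of identical bases shared by the whole transcripts was 47 for Fzd1 with Fzd2 and for Fzd1 with Fzd7, but at most 20 for Fzd4 with any other Frizzled. Lrp5 and Lrp6 were identical at 68.4% of aligned coding bases and shared runs of up to 22 bases. How reads that match several places were counted is not given in the sources used here.

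What the 7 Frizzleds share on the inside of the membrane is the short motif that binds Dishevelled, just after the last membrane helix: lysine and threonine, 3 variable residues, then tryptophan. Its coding letters are shown because they mark the step from receptor to Dishevelled and show how far the members differ there. Each sequence is from the GENCODE transcript on GRCm38, written 5′ to 3′ on the gene's own strand, with the codons of lysine, threonine and tryptophan in capitals.
Fzd1, chr5:4755706-4755723: AAGACActgaattccTGG
Fzd2, chr11:102606373-102606390: AAGACActgcactcgTGG
Fzd7, chr1:59484607-59484624: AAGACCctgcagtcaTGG
Fzd5, chr1:64735011-64735028: AAGACTctggagtctTGG
Fzd4, chr7:89408241-89408258: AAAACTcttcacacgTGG
Fzd6, chr15:39033949-39033966: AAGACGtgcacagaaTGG

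The motif occurred 1 time in the coding frame of each of the 7 genes, Fzd8 included. In Fzd1, Fzd2 and Fzd7 17 codons followed it before the stop codon, in Fzd4 33, in Fzd5 55, in Fzd8 74 and in Fzd6 206. Fzd4 is the only member of the 6 printed whose lysine codon is AAA. Fzd6, the most abundant member here, has by far the longest tail, and its motif lies in exon 5 of 7, while that of Fzd4 lies in exon 2 of 2.

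Promoters were matched by symbol in the RefSeq table of GRCm38.p6 for 4 of the 9 genes: Fzd1, Fzd4, Fzd5 and Fzd7. The 250 bases before the start are printed for Fzd4 and Fzd7, genes with like TPM of which Fzd4 had the higher level with dDAVP. Capitals mark GC boxes (GGGCGG on either strand, so also CCGCCC), and neighbouring boxes can overlap.
Fzd4, chr7:89404116-89404365, plus strand: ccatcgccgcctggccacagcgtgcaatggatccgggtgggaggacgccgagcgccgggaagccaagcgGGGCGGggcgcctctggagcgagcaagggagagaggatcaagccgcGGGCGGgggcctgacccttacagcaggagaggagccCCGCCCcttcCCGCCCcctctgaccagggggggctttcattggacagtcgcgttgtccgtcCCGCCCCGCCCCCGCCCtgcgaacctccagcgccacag
Fzd7, chr1:59481897-59482146, plus strand: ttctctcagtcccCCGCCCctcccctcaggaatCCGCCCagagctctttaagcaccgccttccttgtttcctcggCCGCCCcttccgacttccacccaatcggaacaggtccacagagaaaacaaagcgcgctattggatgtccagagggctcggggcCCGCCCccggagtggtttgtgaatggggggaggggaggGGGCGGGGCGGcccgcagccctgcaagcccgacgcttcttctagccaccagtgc

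The Fzd4 window held 7 GC boxes and was 72.8% G or C, and the Fzd7 window held 6 and was 65.2% G or C. GC boxes were in 32.7% of 32851 promoters of the same length. Fzd5 held 9 and Fzd1 none. The full cAMP response element TGACGTCA, in 1.55% of promoters, was in none of the 4 windows on either strand, and neither was its shorter form TGACG, in 17.8% of promoters, which is part of the full one. The TCF/LEF core CTTTGA, in 13.8% of promoters, was found once, on the minus strand of the Fzd1 window. These are letter matches in a short window.

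Fzd6 was the most abundant Frizzled transcript, at 81.7 TPM ± 5.98 (SD over 12 libraries of all groups, 72.4 to 91.2), above 88.3% of the genes tested. The co-receptors followed, Lrp6 at 50.9 ± 4.86 TPM (40.6 to 58.0) and Lrp5 at 43.7 ± 6.62 TPM (35.0 to 55.3). Fzd2 was next at 27.9 ± 4.84 TPM (18.7 to 37.1). A group of 3 genes with lower levels held Fzd1 at 9.45 ± 1.02 TPM (8 to 11.04), Fzd5 at 8.71 ± 0.892 TPM (7.02 to 9.85) and Fzd7 at 5.33 ± 0.694 TPM (4.35 to 6.66). Fzd4 averaged 5.22 ± 1.66 TPM (3.12 to 7.84), the widest spread relative to its mean, and Fzd8 was lowest at 3.26 ± 0.591 TPM (2.21 to 4.07).

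**Figure D1:**
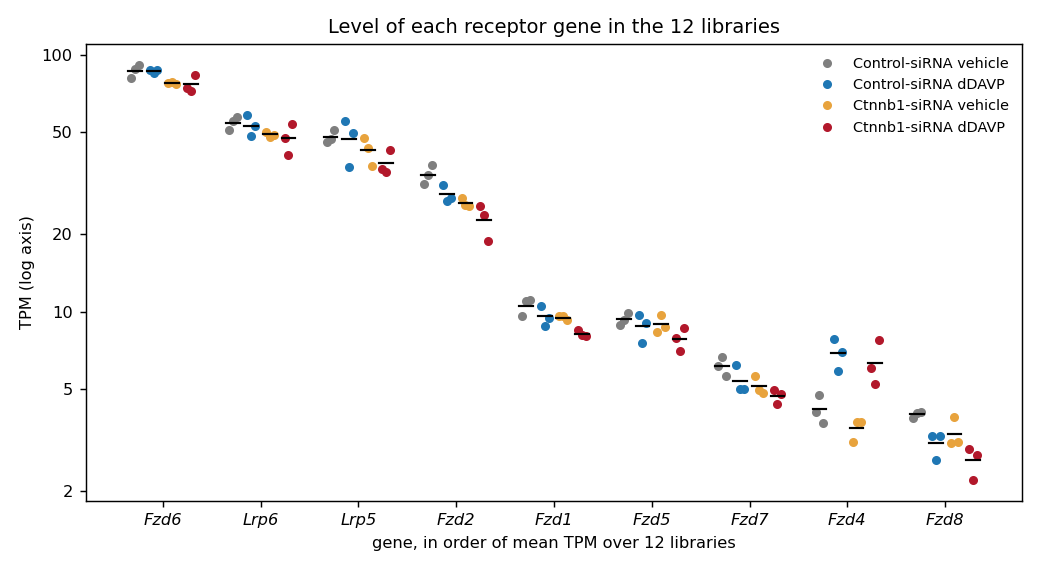
TPM (log axis) of the 9 receptor genes in each of the 12 libraries, in order of mean TPM; points are libraries, coloured by group, and black lines are group means. Fzd6 stays between 72.4 and 91.2 TPM, and Fzd4 is the gene whose 6 dDAVP libraries sit above its 6 vehicle libraries.

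In that order, the 12 values of Fzd6 and Lrp6 did not overlap, nor did those of Fzd2 and Fzd1 or of Fzd5 and Fzd7. Lrp6 and Lrp5, Lrp5 and Fzd2, Fzd1 and Fzd5, Fzd7 and Fzd4, and Fzd4 and Fzd8 overlapped in their pooled ranges. Compared within each library, Lrp6 was above Lrp5 and Lrp5 above Fzd2 in 12 of 12 libraries. Fzd1 was above Fzd5 in 10 of 12 and Fzd4 above Fzd8 in 10 of 12, so the order of these pairs was not the same in every library. Fzd7 was above Fzd4 in 6 of 12, and this split followed treatment. Fzd7 was higher in 3 of 3 libraries of either vehicle group, and Fzd4 in 3 of 3 of either dDAVP group. Fzd9 had 0 to 7 reads per library and did not pass the filter on low counts. Fzd3 and Fzd10 were looked up by symbol and were not in the table. The receptor pool of these cells was thus mostly Fzd6 and Fzd2 transcript with both co-receptors present.

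Fzd4 was the member whose level differed most with dDAVP. With control siRNA and vehicle it was at 7.61, 8.41 and 6.42 CPM (replicates 1 to 3), and with dDAVP at 13.95, 11.45 and 12.76 CPM. The 3 dDAVP libraries all lay above the 3 vehicle libraries. With Ctnnb1 siRNA the vehicle values were 5.80, 7.05 and 7.13 CPM and the dDAVP values 11.92, 10.92 and 14.30 CPM. Again the groups did not overlap. The edgeR log2 fold change was 0.77 (SE 0.13, 1.71-fold) with control siRNA and 0.89 (SE 0.13, 1.86-fold) with Ctnnb1 siRNA. On the TPM scale the Fzd4 means were 4.16 and 6.88 with control siRNA and 3.52 and 6.33 with Ctnnb1 siRNA.

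In order of TPM, Fzd4 was in place 8 with vehicle and in place 7 with dDAVP, with either siRNA. It then stood above Fzd7 in 3 of 3 libraries of either dDAVP group, although the ranges of Fzd4 and Fzd7 still overlapped with control siRNA and dDAVP. At an adjusted p under 0.05, 1 of the 9 genes was called higher with dDAVP, Fzd4, with either siRNA. Of all genes tested, 1.91% were called higher with control siRNA and 2.08% with Ctnnb1 siRNA. Fzd4 was chosen for this difference, so nothing is read from these counts. Of the marker lists, 3 had sums that did not overlap between vehicle and dDAVP with either siRNA. The first was the collecting duct and epithelial list, at 5014 to 5279 TPM in the vehicle libraries and 5397 to 5685 TPM in the dDAVP libraries. The 3 proximal tubule markers in the table, nearly all Lrp2, summed to 10.99 to 13.29 TPM with vehicle and 8.32 to 10.7 TPM with dDAVP, and Slc5a2 reached at most 0.01 TPM. Podxl, the 1 podocyte marker of 4 in the table, was at 19.93 to 21.40 and 14.06 to 18.44 TPM with control siRNA (vehicle, then dDAVP) and at 17.43 to 20.22 and 12.15 to 13.52 TPM with Ctnnb1 siRNA. Their part in the Fzd4 values was not tested.

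**Figure D2:**
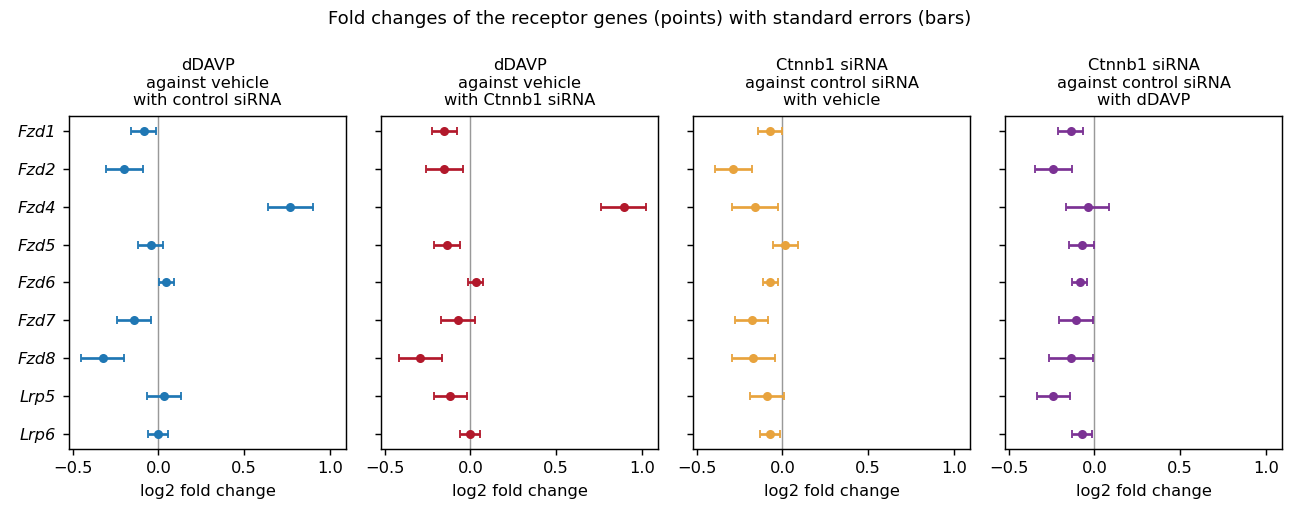
Log2 fold changes (x axes) of the 9 receptor genes (y axis) in 4 comparisons; points are edgeR estimates and bars are 1 standard error. Fzd4 stands at 0.77 and 0.89 in the dDAVP panels, which describe the difference the gene was chosen for, and at -0.16 and -0.04 in the siRNA panels.

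The other 8 genes differed less with dDAVP than Fzd4 did. With control siRNA, voom called 1 of the 9 genes lower, as did edgeR without Ctnnb1-siRNA dDAVP library 3. Over all genes they tested, these fits called 573 and 330 genes lower. Fzd8 was at 6.55, 6.50 and 6.40 CPM with control siRNA and vehicle and at 5.30, 4.73 and 5.50 CPM with dDAVP, without overlap (log2 -0.32, SE 0.13). With Ctnnb1 siRNA its vehicle values were 5.19, 6.69 and 5.39 CPM and its dDAVP values 5.25, 4.23 and 4.63 CPM, which overlapped (log2 -0.29, SE 0.13). Fzd8 was thus the lowest member with dDAVP in both settings, on the opposite side of 0 from Fzd4.

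Fzd2 had a log2 difference with dDAVP of -0.20 (SE 0.11) with control siRNA, where its groups did not overlap, and of -0.15 (SE 0.11) with Ctnnb1 siRNA. Without the Ctnnb1-siRNA dDAVP library 3 the second value was 0.01. Fzd1, Fzd5 and Fzd7 lay between -0.15 and -0.05 on the log2 scale in both settings. Fzd6 was at 0.04 and 0.03 (SE 0.04 each), Lrp6 at 0.00 in both (SE 0.06) and Lrp5 at 0.03 and -0.12 (SE 0.10). Counting groups of 3 without overlap, 1 member was higher and 2 were lower with dDAVP and control siRNA, against 10.2% and 12% of all genes tested. With Ctnnb1 siRNA 1 was higher and 1, Fzd1, was lower, against 9.54% and 8.3%.

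The make-up of the Frizzled pool was expressed as each gene's percent of the summed TPM of the 7 Frizzled genes. Fzd6 made up 55.7% to 62.2% in every library and Fzd2 14.0% to 22.8%. Fzd4 was 2.80%, 3.02% and 2.28% with control siRNA and vehicle and 5.03%, 4.14% and 4.69% with dDAVP. With Ctnnb1 siRNA it was 2.31%, 2.72% and 2.82% with vehicle and 4.64%, 4.24% and 5.80% with dDAVP. All 6 dDAVP libraries thus had a larger Fzd4 share than any vehicle library, and even then Fzd4 stayed under 6% of the pool. The size of the share depends on the length used: with TMM-scaled reads per kilobase of merged GENCODE exons, an alternative chosen after seeing the data, the means were 1.67% and 2.88% with control siRNA and 1.62% and 3.07% with Ctnnb1 siRNA.

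**Figure D3:**
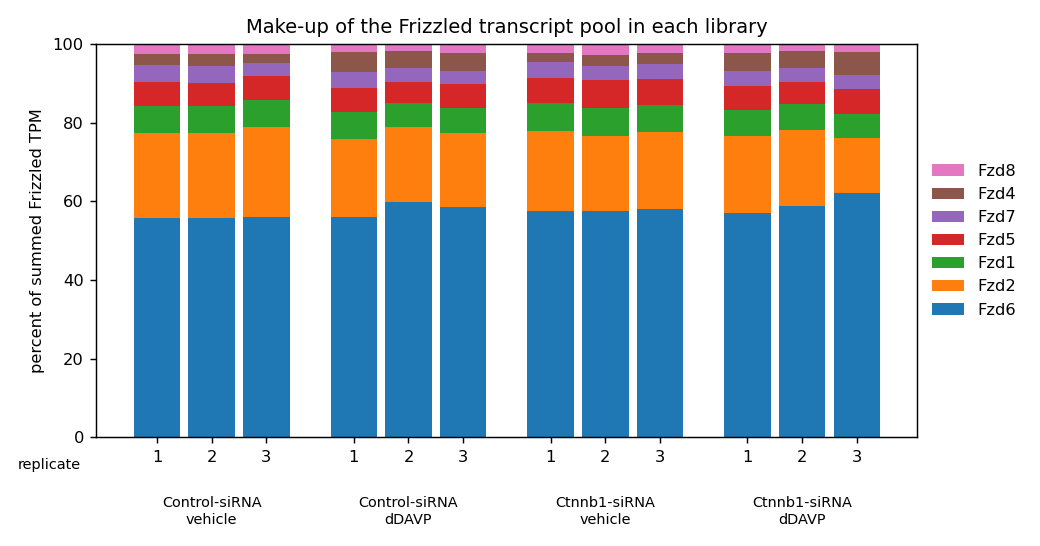
Percent of summed Frizzled TPM (y axis) taken by each of the 7 Frizzled genes in each of the 12 libraries (x axis, replicates within groups). Fzd6 fills 55.7% to 62.2% of each bar, and the Fzd4 band is wider in the dDAVP bars (4.14% to 5.80%) than in the vehicle bars (2.28% to 3.02%).

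The Fzd2 share was lower with dDAVP and control siRNA, at a mean of 19.2% against 22.0% with vehicle, without overlap, a larger difference in percentage points than that of Fzd4. With Ctnnb1 siRNA its means were 17.7% and 19.6%, and the groups overlapped. The Fzd8 share had means of 2.58% and 2.07% with control siRNA and of 2.49% and 2.04% with Ctnnb1 siRNA (vehicle, then dDAVP). The Fzd4 to Fzd6 TPM ratio, which does not depend on the other genes, was 0.0483 ± 0.00701 and 0.0797 ± 0.0102 with control siRNA and 0.0453 ± 0.00445 and 0.0823 ± 0.0107 with Ctnnb1 siRNA (SD, n = 3 each).

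The Fzd4 difference was also present with Ctnnb1 siRNA. The interaction, the dDAVP difference with Ctnnb1 siRNA minus that with control siRNA, was 0.12 on the log2 scale for Fzd4 (SE 0.18, edgeR adjusted p = 0.963), with a 95% interval from -0.27 to 0.51. The interval holds 0 and also holds a dDAVP difference smaller or larger by up to those amounts, so it does not show that the responses were alike. For the other 8 members the interaction ranged from -0.15 (Lrp5) to 0.07 (Fzd7). edgeR called 0 of the 9 members and 0% of all genes tested. At an unadjusted p under 0.05 the count of members was also 0, against 5.02% of all genes tested, and DESeq2, voom with sample weights and limma on log2 TPM each called 0 members.

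Ctnnb1 siRNA did not change the Fzd4 level detectably. Its log2 fold change against control siRNA was -0.16 with vehicle (SE 0.13, edgeR adjusted p = 0.867, 95% interval -0.45 to 0.12) and -0.04 with dDAVP (SE 0.13, edgeR adjusted p = 0.937, -0.31 to 0.23). The values overlapped in both. The Fzd4 share of the pool also overlapped, with differences of -0.083 percentage points with vehicle (exact two-sided permutation p = 0.8) and 0.275 with dDAVP (exact p = 0.7). With 3 libraries against 3 the smallest p such a test can give is 0.1, so it cannot reach 0.05. With vehicle, 4 other shares separated without overlap between the siRNA groups, each at that smallest exact p of 0.1. The Fzd2 share differed by -2.35 percentage points, that of Fzd6 by 1.84, that of Fzd5 by 0.603 and that of Fzd1 by 0.231 (Ctnnb1 siRNA minus control siRNA). The shares come from the same sum and are not independent, so a larger share need not mean a higher level. Mean CPM with vehicle was 169.7 and 161.5 for Fzd6 and 22.4 and 21.3 for Fzd1 (control siRNA, then Ctnnb1 siRNA). For Fzd5 it was 31.2 and 31.6. With dDAVP all 7 shares overlapped.

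Over the 9 members, edgeR called 0 in either direction with Ctnnb1 siRNA and vehicle, against 0.43% of all genes tested. It called 0 with dDAVP, against 0.267%, and 0 for the average of both siRNA effects, against 1.85%. At an unadjusted p under 0.05 the counts were 1 (Fzd2), 2 (Fzd2 and Lrp5) and 3 (Fzd2, Fzd6 and Lrp5), all lower. These are 11.1%, 22.2% and 33.3% of the 9 members, against 8.09%, 11.7% and 13.2% of all genes tested at that threshold. DESeq2 called 0, 0 and 1, voom with sample weights 1, 0 and 1, and limma on log2(TPM + 1) 0, 0 and 1, and the gene was Fzd2 each time. For the average, these tools called 3.31%, 5.60% and 1.63% of all genes tested. The log2 values were negative for 8, 9 and 9 of the 9 genes, with medians of -0.09, -0.11 and -0.11, while 51.0%, 49.6% and 50.3% of all genes tested had a negative value and the medians over all genes were at 0.00. Groups of 3 without overlap, all lower, numbered 3 of 9 with vehicle (Fzd2, Fzd6 and Lrp6), against 9.26% of all genes. With dDAVP they numbered 3 of 9 (Fzd1, Fzd2 and Fzd6), against 6.02%.

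Fzd2 came closest to a call. It was at 57.6, 59.0 and 63.2 CPM with control siRNA and vehicle and at 50.4, 48.7 and 48.4 CPM with Ctnnb1 siRNA and vehicle, without overlap. With dDAVP the values were 54.5, 52.1 and 50.0 CPM with control siRNA and 49.9, 48.8 and 33.9 CPM with Ctnnb1 siRNA. The groups were nearly in contact, at 49.9 and 50.0 CPM, and the library of Ctnnb1 siRNA with dDAVP numbered 3 stood far below the rest. The same library held the lowest Fzd1 value of all, 17.5 CPM.

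For Fzd2 the log2 fold change was -0.29 with vehicle (SE 0.11, edgeR adjusted p = 0.458), -0.24 with dDAVP (SE 0.11, edgeR adjusted p = 0.415) and -0.26 on average (SE 0.08, edgeR adjusted p = 0.116). None of the 3 passed the test. Without the Ctnnb1-siRNA dDAVP library 3, Fzd2 was called lower with vehicle (log2 -0.29, edgeR adjusted p = 0.00946) and on average (log2 -0.18, edgeR adjusted p = 0.0141), while the value with dDAVP shrank to -0.08. With the libraries of the compared groups alone, the edgeR adjusted p with vehicle was 0.00735. The part of that library's mitochondrial ribosomal RNA share in these values was not tested.

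Fzd6 was at 165.6, 170.7 and 172.9 CPM with control siRNA and vehicle and at 158.3, 163.9 and 162.4 CPM with Ctnnb1 siRNA and vehicle. With dDAVP it was at 169.5, 180.9 and 174.9 CPM with control siRNA and at 160.4, 166.1 and 168.3 CPM with Ctnnb1 siRNA. The groups did not overlap in either setting, but the differences were small (log2 -0.07 and -0.09, SE 0.04 each; edgeR adjusted p = 0.759 and 0.472). Fzd5 was the flattest member with vehicle, at 0.02, and was at -0.07 with dDAVP (SE 0.07 each). Fzd7 (-0.18 and -0.11, SE 0.10 each) and Fzd8 (-0.17 and -0.14, SE 0.12 and 0.13) had negative values with overlapping groups. Fzd1 was at -0.07 and -0.14 (SE 0.07 each).

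The sum of the 7 Frizzled TPM values was 144.4, 157.0 and 162.6 with control siRNA and vehicle and 134.9, 136.4 and 132.1 with Ctnnb1 siRNA and vehicle. With dDAVP it was 155.9, 141.2 and 148.1 with control siRNA and 129.7, 122.9 and 133.9 with Ctnnb1 siRNA. The siRNA groups did not overlap in either setting, with mean differences of -13.1% and -13.2% (exact two-sided permutation p = 0.1 each, the smallest possible, 0.3 after Benjamini-Hochberg adjustment over 6 tests). On log2(TPM + 1) the median of all genes tested was itself at -0.07 for both siRNA comparisons. With TMM-scaled reads per kilobase of GENCODE exon length, the differences were -8.21% and -8.07%.

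Of the co-receptors, Lrp6 was at 241, 245 and 251 CPM with control siRNA and vehicle and at 235, 230 and 235 CPM with Ctnnb1 siRNA and vehicle, without overlap (log2 -0.07, SE 0.06, edgeR adjusted p = 0.843). With dDAVP its groups overlapped, at 260, 232 and 245 CPM with control siRNA and 235, 215 and 251 CPM with Ctnnb1 siRNA. Lrp5 varied more between replicates, with 134.8, 100.1 and 121.5 CPM with control siRNA and dDAVP against 98.6, 95.5 and 107.6 CPM with Ctnnb1 siRNA and dDAVP. The groups overlapped, and the log2 difference was -0.24 (SE 0.10, edgeR adjusted p = 0.353). With vehicle Lrp5 was at 116.1, 113.7 and 118.7 CPM with control siRNA and at 122.2, 108.3 and 97.0 CPM with Ctnnb1 siRNA.

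The Lrp6 to Lrp5 TPM ratio described the balance of the co-receptors. It was 1.14 ± 0.0298 and 1.14 ± 0.148 with control siRNA (vehicle, then dDAVP) and 1.17 ± 0.143 and 1.25 ± 0.0868 with Ctnnb1 siRNA (SD, n = 3 each). All 12 libraries had more Lrp6 than Lrp5 per length, at ratios from 1.05 to 1.33. The siRNA groups overlapped, with an exact two-sided permutation p of 1 with vehicle and 0.3 with dDAVP (0.6 after adjustment over 6 tests). Per kilobase of merged GENCODE exons the ratio was higher, 1.51 and 1.49 with control siRNA and 1.54 and 1.65 with Ctnnb1 siRNA.

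The genes whose log2 CPM followed Fzd4 most closely over the 12 libraries were Rassf3 (Pearson r = 0.987), Cndp2 (0.975), Trpv4 (0.970), Arg2 (0.969) and Sptbn5 (0.969), out of 11707 genes with a mean of at least 1 CPM. The 12 points share 4 group means and 2 treatments, so these values describe a common order of libraries and carry no test. Trpv4, a calcium-permeable cation channel, went from a mean of 105 to 138 CPM with dDAVP and control siRNA and from 99.7 to 136 CPM with Ctnnb1 siRNA. Arg2, the mitochondrial arginase, went from 2.63 to 10.96 CPM and from 2.37 to 10.27 CPM, a larger ratio than that of Fzd4. For the other 8 receptor genes, r with Fzd4 ranged from -0.572 (Fzd8) to 0.400 (Fzd6). These values hold the dDAVP difference that Fzd4 was chosen for. With the group means taken out, r ranged from -0.601 (Fzd2) to 0.596 (Fzd5), and that of Fzd8 was 0.416.

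Other genes of the pathway were taken from 9 lists by role, 108 genes in all, of which 77 were in the table and 62 were tested. Among Wnt ligands, Wnt7b was the most abundant at 173 TPM, ahead of Wnt10a (37.3), Wnt7a (21.3) and Wnt4 (13.7). Wls, which carries Wnt proteins to the cell surface, was at 233 TPM. Tspan12, the helper of Fzd4 in Norrin signalling, was at 93.1 TPM, and the heparan sulphate proteoglycan Sdc1 led the other receptors and co-receptors at 191 TPM. Inhibitors were led by Tpbg at 20.2 TPM, receptor folding and trafficking by Atp6ap2 at 81.4 TPM, and the planar polarity partners by Celsr1 at 34.0 TPM. The adaptor subunit Ap2m1 was at 327 TPM and the tankyrase Tnks2, which promotes Axin turnover, at 250 TPM.

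The edgeR calls of the siRNA comparisons were all in the list of R-spondins, Lgr receptors and receptor ubiquitin ligases, of which 4 genes were tested. Over all 62 genes edgeR called 0 higher and 1 lower with Ctnnb1 siRNA and vehicle, 0 and 1 with dDAVP, and 0 and 3 on average. At an unadjusted p under 0.05 the higher and lower counts were 2 and 4, 0 and 12, and 3 and 12. Together these are 9.68%, 19.4% and 24.2% of the 62 genes, against 8.09%, 11.7% and 13.2% of all genes tested. The edgeR calls compare with 0.43%, 0.267% and 1.85% of all genes. DESeq2 called 0 higher and 1, 2 and 6 lower, voom 0 higher and 1, 4 and 7 lower, and limma on log2(TPM + 1) 0 higher and 1, 0 and 2 lower. Over all genes tested, DESeq2 called 1.04%, 1.34% and 3.31%, voom 1.53%, 1.82% and 5.60%, and limma 0.357%, 0.127% and 1.63%. The median log2 value of the 62 was -0.03, -0.07 and -0.07, against 0.00 over all genes tested.

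Rnf43, the ubiquitin ligase that clears Frizzled receptors and is itself a known beta-catenin target, was at 2.55, 2.18 and 2.23 CPM with control siRNA and vehicle and at 1.15, 0.473 and 0.420 CPM with Ctnnb1 siRNA and vehicle. With dDAVP the values were 1.78, 1.87 and 1.83 CPM and 0.744, 0.526 and 0.442 CPM. The groups did not overlap in either setting. Rnf43 fell by 1.78 on the log2 scale with vehicle (SE 0.30, edgeR adjusted p = 0.0136), by 1.68 with dDAVP (SE 0.31, edgeR adjusted p = 0.0296) and by 1.73 on average (SE 0.21, edgeR adjusted p = 0.000482). Its level was low, at 0.18 to 1.16 TPM. The call with vehicle held in 17 of 22 alternatives and was lost without any 1 of the control-siRNA vehicle libraries or Ctnnb1-siRNA vehicle library 2 or 3 (edgeR adjusted p 0.0641 to 0.0916). The call with dDAVP held in 11 of 22 and was lost without any 1 of the 6 control-siRNA libraries or Ctnnb1-siRNA dDAVP library 1 or 2 (edgeR adjusted p 0.0506 to 0.140). It was also lost with the compared groups alone (edgeR adjusted p = 0.0660). Limma on log2 TPM plus 1 or plus 0.1 lost it too (limma adjusted p = 0.0511 and 0.0860). The call on the average held in all 21 alternatives.

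Lgr4, an R-spondin receptor, fell on average by 0.14 on the log2 scale (SE 0.03, edgeR adjusted p = 0.0195), and its relative Lgr6 fell by 0.52 (SE 0.12, edgeR adjusted p = 0.0373). Lgr4 was at 269 to 277 CPM with control siRNA and vehicle and 256 to 260 CPM with Ctnnb1 siRNA and vehicle, and at 262 to 277 and 229 to 237 CPM with dDAVP. The Lgr4 groups overlapped in neither setting, while those of Lgr6 overlapped with vehicle. The Lgr4 call was lost without control-siRNA vehicle library 3, control-siRNA dDAVP library 3 or Ctnnb1-siRNA vehicle library 2 or 3 (edgeR adjusted p up to 0.0717), and the Lgr6 call held in 10 of 21 alternatives. It was lost without control-siRNA vehicle library 2 or 3, control-siRNA dDAVP library 1 or 3, Ctnnb1-siRNA vehicle library 2 or 3, or Ctnnb1-siRNA dDAVP library 1 or 2 (edgeR adjusted p 0.0705 to 0.127). Limma on log2 TPM plus 1 or plus 0.1 lost it too (limma adjusted p = 0.0757 and 0.0811), as did a replicate block (edgeR adjusted p = 0.0701). Znrf3, the partner of Rnf43, was not called (average log2 -0.23, SE 0.09, edgeR adjusted p = 0.256).

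**Figure D4:**
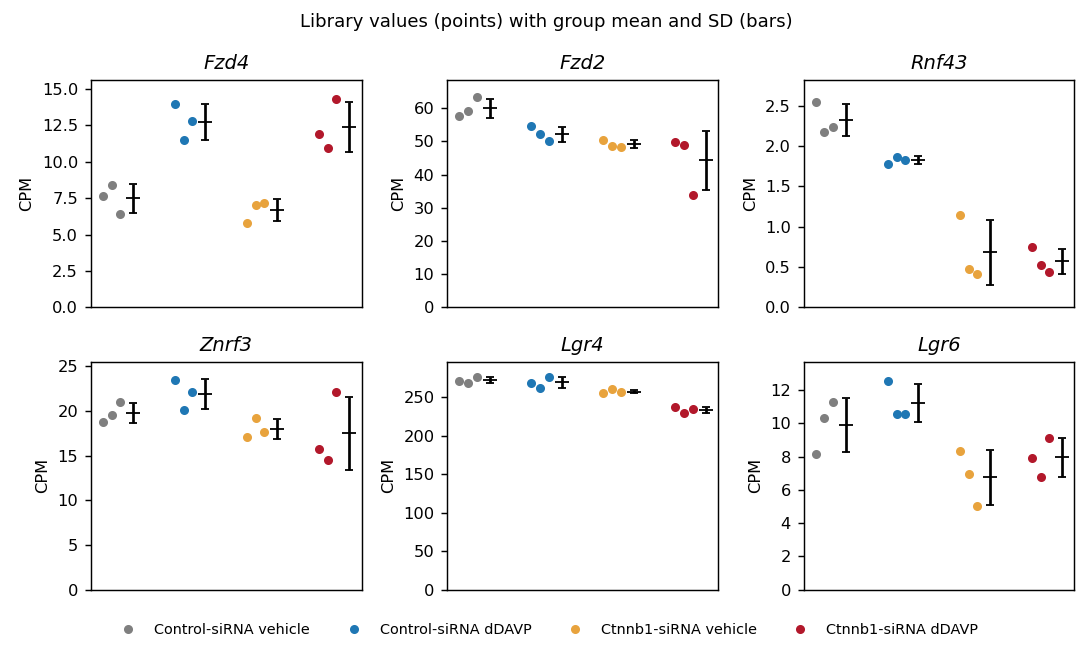
CPM (y axes, from 0) of Fzd4, Fzd2 and the receptor turnover genes Rnf43, Znrf3, Lgr4 and Lgr6; points are the 3 libraries of each group, and black bars give the mean and SD. Fzd4 separates by dDAVP (10.92 to 14.30 against 5.80 to 8.41 CPM), and Rnf43 separates by siRNA (1.78 to 2.55 against 0.420 to 1.15 CPM).

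With dDAVP, edgeR called 0 of the 62 genes with control siRNA, against 2.83% of all genes tested. At an unadjusted p under 0.05 it counted 2 higher and 11 lower, or 21.0% of the 62, against 14.6% of all genes. DESeq2 called 1 higher and 0 lower, voom 1 higher and 9 lower, and limma on log2(TPM + 1) 0 higher and 1 lower, against 4.50%, 7.88% and 2.43% of all genes. With Ctnnb1 siRNA 1 gene was called, against 2.78%: Dab2, a clathrin adaptor that binds Lrp6, fell by 0.60 on the log2 scale (SE 0.13, edgeR adjusted p = 0.0180). At an unadjusted p under 0.05, edgeR counted 3 higher and 10 lower there, or 21.0% of the 62, against 13.7% of all genes. DESeq2 called 0 higher and 2 lower, voom 0 and 2, and limma on log2(TPM + 1) 0 and 0. Over all genes these tools called 4.41%, 4.08% and 1.27%. Dab2 was at 5.76, 6.29 and 6.53 CPM with vehicle and 4.22, 4.46 and 3.58 CPM with dDAVP. With control siRNA it was at 5.02, 6.02 and 6.18 CPM with vehicle and 5.27, 4.45 and 5.29 CPM with dDAVP, with overlap. For the interaction edgeR called 0 of the 62 genes, so a difference between the siRNAs is not shown. The Dab2 call with Ctnnb1 siRNA held in 16 of 22 alternatives. The losses included leaving out Ctnnb1-siRNA vehicle library 2 or 3, or Ctnnb1-siRNA dDAVP library 3 (edgeR adjusted p = 0.0833, 0.0754 and 0.0577). They also included limma on log2 TPM plus 1 and plus 0.1, which each called 0 of the 62 genes here. Tspan12 was not called with dDAVP, at log2 0.16 with control siRNA and 0.05 with Ctnnb1 siRNA (SE 0.06 each). The comparisons share libraries, so the values of a gene in the siRNA and dDAVP comparisons are not independent.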

How the data were processed

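RNA sequencing counts and TPM were used from 12 libraries of mpkCCDc11 cells in 4 groups. The authors deposited 1 table with whole-number read counts and TPM per gene and library, per the file headers. Per the labels' protocols, ribosomal RNA was removed from total RNA and the libraries keep the strand. FastQC, Trimmomatic, HISAT2, StringTie and DESeq2 are named with GRCm38 (mm10), without roles or versions, per the submitters' processing notes. Counts were filtered with filterByExpr (16508 genes, 99.97% of reads), scaled by TMM and fitted in R 4.3.3 with edgeR 4.0.16 (quasi-likelihood, robust, 1 coefficient per group, all 12 libraries). Adjusted p-values are Benjamini-Hochberg over all genes tested and were called under 0.05. The model was tested on simulated data. Alternatives used DESeq2 1.42.0, limma 3.58.1 (voom, and log2 of TPM plus 1 or 0.1), other scalings and filters, a replicate block and each library left out. Reads are not independent molecules.

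The 9 receptor genes, the pathway and marker lists and the tests were chosen with earlier results of these data known. Named genes were the 9 receptors, Ctnnb1, Fzd3, Fzd9 and Fzd10, the most abundant gene of each pathway list, up to 6 called list genes per comparison, and the 5 genes most correlated with Fzd4 (log2 CPM, prior count 2). Wnt10a, Wnt7a, Wnt4, Tspan12, Znrf3, Avpr2 and Aqp2 were named in addition, after their values were seen. Positions are from RefSeq on GRCm38, coding sequences and exon lengths from GENCODE on GRCm38.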

Additional observations from a re-analysis of the deposited data

How the results depend on the processing

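The log2 difference of Fzd4 with dDAVP, the value the genes were chosen by, ranged over the 22 alternatives from 0.61 to 0.86 with control siRNA and from 0.69 to 0.97 with Ctnnb1 siRNA, as a description. Counts of called receptor genes in the siRNA comparisons and the interaction differed from the main result only through Fzd2, called lower in addition. The count with Ctnnb1 siRNA and vehicle was 1 in place of 0 with the compared groups alone and with voom. On average over both treatments it was 1 in place of 0 with DESeq2, with voom, and with limma on log2 TPM plus 1 or plus 0.1. Leaving out each library gave 0 to 1 for both comparisons, and the higher value always came without Ctnnb1-siRNA dDAVP library 3. The counts stayed at 0 in the siRNA comparison with dDAVP and in the interaction. No siRNA fold change of a receptor gene that was called in an alternative changed sign. With TMM-scaled reads per kilobase of GENCODE exons, the siRNA difference of summed Frizzled TPM was -8.21% (vehicle) and -8.07% (dDAVP) in place of -13.1% and -13.2%. That alternative was chosen after seeing the data, in place of RefSeq exon lengths, which were not run. Leaving out each library gave -15.9% to -10.8% and -15.2% to -10.9%. It gave -0.295 to 0.0767 and -0.179 to 0.602 percentage points for the Fzd4 share, and -0.0542 to 0.0794 and 0.0628 to 0.195 for the Lrp6 to Lrp5 ratio. With a replicate block, the count of called receptor genes was 0 in the siRNA comparisons and the interaction, as without it. The labels do not state whether the numbers pair the samples. Same-numbered libraries of different groups correlated at -0.147 to 0.194 in their deviations from the group means (18 pairs). Other-numbered ones correlated at -0.276 to 0.342 (36 pairs). The ranges overlap, so no pairing by number was seen, but a shared culture or batch cannot be told from these values. Under the replicate block the Lgr6 call was lost (adjusted p = 0.0701).

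The precision is limited by 3 libraries a group and, for the lowest members, by depth: Fzd8 had 185 to 321 reads and Fzd4 237 to 679 reads per library. The common biological coefficient of variation was 8.26%, and the standard error of a receptor gene's log2 fold change between groups was 0.04 to 0.13. Differences of over 2 standard errors, such as that of Fzd2, still missed the adjusted threshold.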
